A study of Mus musculus with 12 samples.

Results

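Genes of the YAP/TAZ-TEAD transcription module were followed in RNA-seq libraries of mouse scars. The members were chosen by name, with earlier results of these data known. They were the coactivator genes *Yap1* and *Wwtr1* (the gene of TAZ), the DNA-binding factors *Tead1*, *Tead2*, *Tead3* and *Tead4*, and the target genes *Amotl2*, *Ankrd1*, *Ccn1* and *Ccn2*. The count files list *Ccn1* under its older symbol *Cyr61* and *Ccn2* as *Ctgf*. These 10 genes stand among the 35976 genes listed, and all 10 passed the filter on low counts that left 18853 genes for testing.

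YAP and TAZ are coactivators without a DNA-binding domain of their own. In the Hippo pathway the MST kinases activate the LATS kinases, which phosphorylate YAP and TAZ and keep them out of the nucleus. Tension on the cytoskeleton, a stiff matrix and cell spreading let them enter it, where they act through the TEAD proteins. In the dermis the pathway is known for the response of fibroblasts to stretch and stiffness, and CCN1 and CCN2, secreted matricellular proteins, are its most used readouts. Much of this control acts on the phosphorylation and location of the proteins, which RNA-seq does not measure.

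The study asked whether the scarring that mechanical traction induces depends on TEM1 (endosialin, CD248), a transmembrane glycoprotein of stromal cells. A split wound was made in the back skin of male mice aged 8 to 12 weeks, and a plastic device was placed over it after 6 days. Traction lengthened the device daily by 1 mm until 8 mm had been reached, and sham mice wore it at a fixed length. Scars of 4 groups with 3 mice each were sequenced: *Tem1* WT/WT sham, *Tem1* WT/WT traction, *Tem1* lacZ/lacZ sham and *Tem1* lacZ/lacZ traction. In *Tem1* lacZ/lacZ mice a lacZ reporter stands in place of the only exon of *Tem1*, so that the loss is not limited to one cell type, and the line had been crossed back to C57BL/6J. All mice, shams included, thus carried a wound and a device, and the groups hold no unwounded skin. Part of each scar, from which the margins had been trimmed, gave 1 library.

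Library totals lay between about 41536800 and 64644300 counts. The targeted gene, listed as *Cd248*, had 3883 to 16413 counts in the *Tem1* WT/WT libraries and 0 to 13 in the *Tem1* lacZ/lacZ libraries. All 9 fibroblast and all 8 keratinocyte markers had counts in every library, as a scar with epidermis would show. A pair of libraries stood furthest apart in their marker genes, both of replicate 1 in *Tem1* WT/WT mice. In *Tem1* WT/WT sham replicate 1 the 12 skeletal muscle markers summed to 15784 CPM, against 385 to 4360 CPM in the other libraries. In *Tem1* WT/WT traction replicate 1 the 7 neutrophil markers summed to 6796 CPM, against 62.0 to 609 CPM elsewhere, where the defining marker *Ly6g* was at 0 counts in some libraries. By these marker sums other libraries stood out less. *Tem1* lacZ/lacZ traction replicate 1 had a keratinocyte marker sum of 42884 CPM, against 12762 to 21490 CPM elsewhere. *Tem1* lacZ/lacZ sham replicate 1 had an adipocyte marker sum of 5376 CPM, against 154 to 2742 CPM elsewhere. Below, the libraries that stood apart are the *Tem1* WT/WT pair, and calls made with them are also given without them. CPM, the share of a gene in all counts of a library on a common scale, are given after TMM scaling, and levels of different genes are compared only as CPM per kb of exon.

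The 6 bases GGAATG are the core of the site that TEAD factors bind, and they were searched on both strands (as GGAATG or CATTCC, which do not overlap each other) in the 250 bases before each start in RefSeq's table for GRCm38.p6. Of 10 members, 7 have an entry there: *Yap1*, *Wwtr1*, *Tead2*, *Tead3*, *Ankrd1*, *Amotl2* and *Ccn1*. The letters are present before at least 1 start of 6 of these 7 genes and absent from the window of *Tead2*, and 14.4% of the 27025 genes in the table hold them in a window of this length. The window of *Ccn1*, the member with the largest rise in level, is shown whole with the match in capitals (chr3:145649986-145650235, minus strand, 250 bases). For the other targets and for both coactivators 30 bases are shown around each match.
Ccn1, 103 bases before the start: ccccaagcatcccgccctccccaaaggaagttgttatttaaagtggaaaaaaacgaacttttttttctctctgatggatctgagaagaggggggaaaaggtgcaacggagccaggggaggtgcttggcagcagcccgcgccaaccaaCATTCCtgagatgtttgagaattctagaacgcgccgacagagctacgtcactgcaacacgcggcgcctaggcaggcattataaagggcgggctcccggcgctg
Ankrd1, 210 bases before the start: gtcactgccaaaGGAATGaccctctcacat
Ankrd1, 123 bases before the start: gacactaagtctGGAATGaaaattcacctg
Amotl2, 65 bases before the start: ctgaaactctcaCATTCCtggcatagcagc
Yap1, 141 bases before the start: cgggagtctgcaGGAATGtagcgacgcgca
Wwtr1, 136 bases before the start: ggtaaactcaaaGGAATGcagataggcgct

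The match of *Ccn1* falls outside every gene of the GENCODE annotation (release M21), as do those of *Yap1* and *Wwtr1*. The matches of *Ankrd1* (chr19:36120037-36120066 and chr19:36119950-36119979, minus strand) and of *Amotl2* (chr9:102717727-102717756, plus strand) lie in stretches that GENCODE gives as untranslated exons of these genes. The stretches of *Yap1* (chr9:8004720-8004749) and *Wwtr1* (chr3:57576029-57576058) are read on the minus strand. A match is a description of the sequence and says nothing of binding in these scars.

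Per kb of exon, the secreted targets had the highest means of the 10 genes, and *Tead4* and *Tead2* the lowest. *Ccn1* had a mean level of 46.7 CPM per kb over the 12 libraries (SD 36.5), *Ccn2* 28.9 (SD 12) and *Wwtr1* 24.1 (SD 5.13). *Ccn1* stood above *Ccn2* in 8 of 12 libraries and *Ccn2* above *Wwtr1* in 7 of 12, so neither neighbour in this order was separated from the next across libraries. *Wwtr1* stood above *Yap1*, at 11.5 CPM per kb (SD 1.86), in 12 of 12 libraries. *Amotl2* lay between the coactivators at 14.2 CPM per kb (SD 4.73), below *Wwtr1* in 12 of 12 libraries and above *Yap1* in 9 of 12. *Ankrd1* had the largest ratio of highest to lowest level, 10.2, from 1.77 to 18.1 CPM per kb around a mean of 6.74. *Tead3* stood above *Ankrd1* in 7 of 12 libraries. Among the TEAD genes the level was 5.46 CPM per kb for *Tead3* (SD 1.11), 4.92 for *Tead1* (SD 1.48), 2.67 for *Tead4* (SD 0.656) and 2.60 for *Tead2* (SD 1.41). *Tead3* exceeded *Tead1* in 7 of 12 libraries and *Tead4* exceeded *Tead2* in 8 of 12, whereas *Tead1* exceeded both *Tead4* and *Tead2* in 12 of 12.

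**Figure D1:**
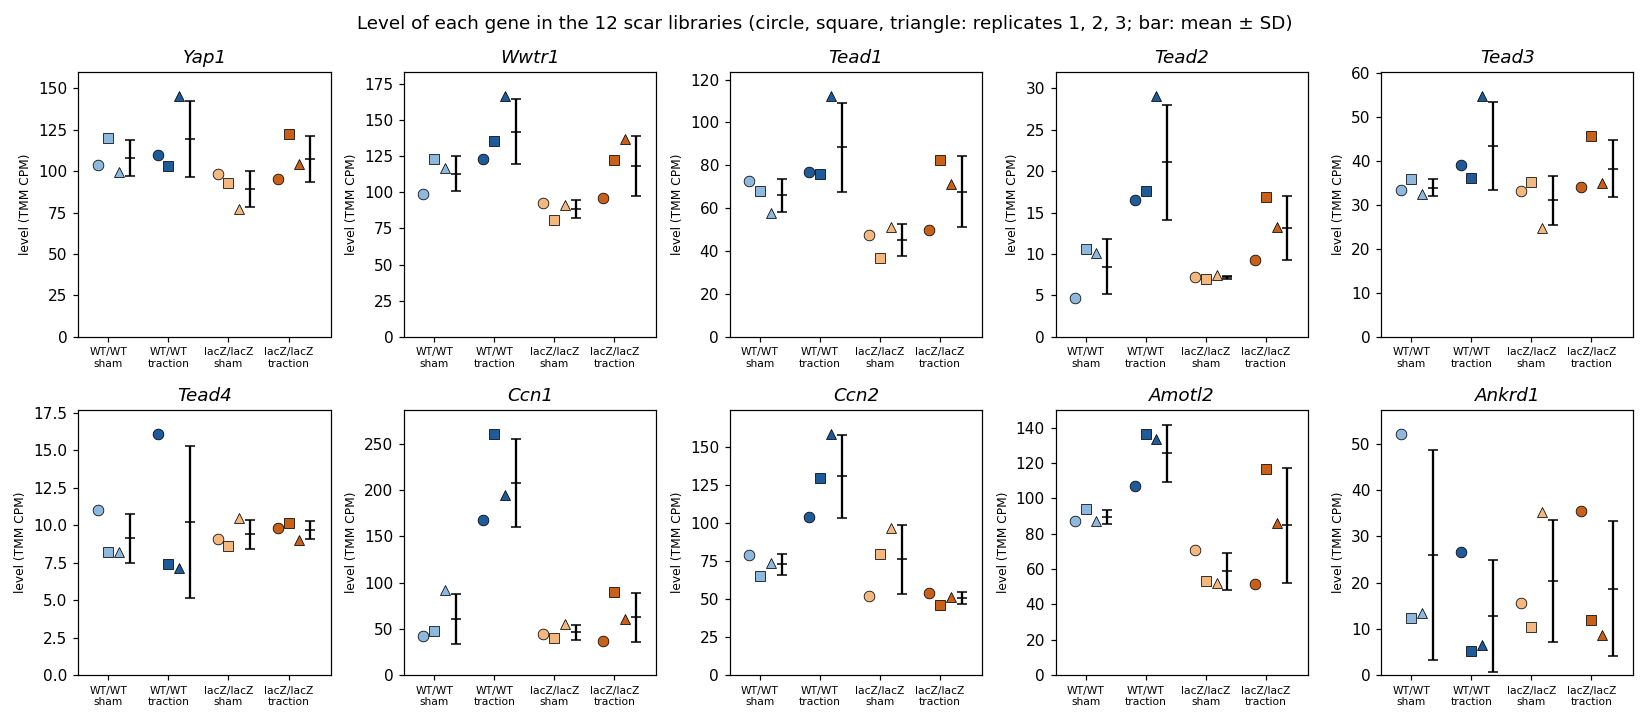
Level of each of the 10 genes (vertical axis, CPM from 0) in the 12 libraries, by group (horizontal axis), with symbols for replicates 1, 2 and 3 and bars for mean and SD. The 3 *Tem1* WT/WT traction libraries lie highest for *Ccn1* and *Ccn2* (from 168 and from 104 CPM), while *Ankrd1* varies more within groups than between them.

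With traction in *Tem1* WT/WT mice, both secreted targets and the TEAD factor *Tead2* rose, and the coactivator genes did not pass the test. *Ccn1* was 3.44-fold, *Tead2* 2.48-fold and *Ccn2* 1.79-fold as high as in sham scars. These 3 of 10 members were called by edgeR at an adjusted p under 0.05, all higher, where 9.15% of all genes tested were called and 5.61% were called higher. The 3 traction libraries lay above all 3 sham libraries for 7 of 10 members, against 17.7% of all genes. The median log2 fold change of the members was 0.39, and that of all genes −0.01.

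*Ccn1* encodes CCN1 (CYR61), a heparin-binding matrix protein that engages integrins, and its gene is at chr3:145646976-145649981, minus strand (GRCm38). In *Tem1* WT/WT sham scars it stood at 42.1, 47.6 and 91.8 CPM (60.5 ± 27.2, SD, n = 3). Traction scars of this genotype had 168, 261 and 195 CPM (208 ± 47.6, SD, n = 3). The groups did not overlap, and the sham library nearest to them was replicate 3. The log2 fold change was 1.78 (standard error 0.36, edgeR adjusted p = 0.0300). The call was lost without *Tem1* WT/WT sham replicate 1 (adjusted p = 0.122) or 2 (0.0922) and without *Tem1* lacZ/lacZ sham replicate 3 (0.0512), and the log2 fold change stayed between 1.57 and 2.22 over all 21 alternatives.

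*Ccn2* encodes CCN2 (CTGF), a matricellular protein long tied to fibrosis, and its gene is at chr10:24595442-24598683, plus strand. Its levels in *Tem1* WT/WT sham scars were 79.3, 65.5 and 73.8 CPM (72.9 ± 6.95, SD, n = 3). With traction they were 104, 129 and 158 CPM (131 ± 27.3, SD, n = 3). Again no library of one group reached into the other. The log2 fold change was 0.84 (standard error 0.22, edgeR adjusted p = 0.0428). This call was kept with 1 library left out only without *Tem1* WT/WT traction replicate 2, *Tem1* lacZ/lacZ sham replicate 1 or *Tem1* lacZ/lacZ traction replicate 1, and without any of the other 9 libraries the adjusted p lay between 0.0515 and 0.133. It was also lost with upper quartile scaling (0.0669) and in limma-voom (0.0596).

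*Tead2*, known for its expression in embryonic tissue, lies at chr7:45215753-45233644, plus strand. The sham libraries of *Tem1* WT/WT mice had 4.67, 10.6 and 10.1 CPM (8.46 ± 3.29, SD, n = 3). The traction libraries had 16.5, 17.6 and 29.1 CPM (21.0 ± 6.97, SD, n = 3). All traction values exceeded all sham values, and the lowest sham value came from replicate 1, the library with the highest skeletal muscle sum. The log2 fold change was 1.31 (standard error 0.34, edgeR adjusted p = 0.0398), with a range of 1.01 to 1.52 over the alternatives. With 1 library left out the call was kept only without *Tem1* WT/WT traction replicate 2 or *Tem1* lacZ/lacZ traction replicate 1, and the adjusted p otherwise lay between 0.0501 and 0.133. In limma-voom it was 0.0532.

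Without both libraries that stood apart, 0 of the 10 members were called in this comparison by edgeR. At an unadjusted p under 0.05 there were 3 members, beside 3822 of all 19192 genes. The log2 fold changes were then 1.70 for *Ccn1* (adjusted p = 0.113), 1.04 for *Ccn2* (0.123) and 1.17 for *Tead2* (0.128). The share of all genes called also fell, to 0.0104%.

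The other 7 members did not pass the test in this comparison. *Yap1*, whose product carries WW domains that bind the LATS kinases and other partners, stood at 104, 120 and 99.3 CPM in sham and at 110, 103 and 145 CPM in traction scars of *Tem1* WT/WT mice. These ranges overlapped, and the log2 fold change was 0.15 (95% interval −0.22 to 0.52). *Wwtr1* had 99.1, 123 and 117 CPM in sham and 123, 136 and 167 CPM in traction scars. Its libraries met at 123 CPM without crossing, and its log2 fold change was 0.33 (95% interval −0.04 to 0.70).

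*Amotl2*, an angiomotin-like protein of cell junctions that binds YAP and whose gene is also a YAP target, had 87.1, 94.1 and 87.3 CPM in sham scars. With traction it stood at 107, 136 and 133 CPM. The groups were separate, but the log2 fold change of 0.49 (standard error 0.25) had an adjusted p of 0.206 in edgeR. *Tead1* and *Tead3* likewise had traction values above all sham values, with log2 fold changes of 0.42 (95% interval −0.07 to 0.91) and 0.35 (95% interval −0.08 to 0.78). *Tead1* ranged from 57.5 to 72.7 CPM in sham and from 75.9 to 112 CPM in traction scars, and *Tead3* from 32.5 to 36 and from 36.3 to 54.9 CPM. *Tead4*, a factor known from trophectoderm and muscle, was between 7.15 and 16.1 CPM in all 6 libraries, with overlap. Its highest value came from traction replicate 1, the library with the highest neutrophil sum, and its log2 fold change turned from 0.16 to −0.34 without that library.

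*Ankrd1* varied most among the members within groups, relative to its group means. The product of *Ankrd1* binds titin in striated muscle and acts as a cofactor in the nucleus. The sham libraries of *Tem1* WT/WT mice had 52.1, 12.2 and 13.4 CPM, and the traction libraries 26.7, 5.10 and 6.49 CPM. Replicate 1 was the highest of each group, the groups overlapped, and the log2 fold change of −1.02 had a 95% interval from −2.82 to 0.78. It was −0.01 without sham replicate 1, −2.18 without traction replicate 1 and −1.15 without both. The summed level of the 12 skeletal muscle markers was 15784, 4360 and 1523 CPM in the same sham libraries and 2567, 385 and 425 CPM in the traction libraries. The highest and the lowest library of the series for the muscle sum were thus also the highest and the lowest for *Ankrd1*. In between the order was not kept, as sham replicate 2 had a larger muscle sum than sham replicate 3 but less *Ankrd1*.

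**Figure D2:**
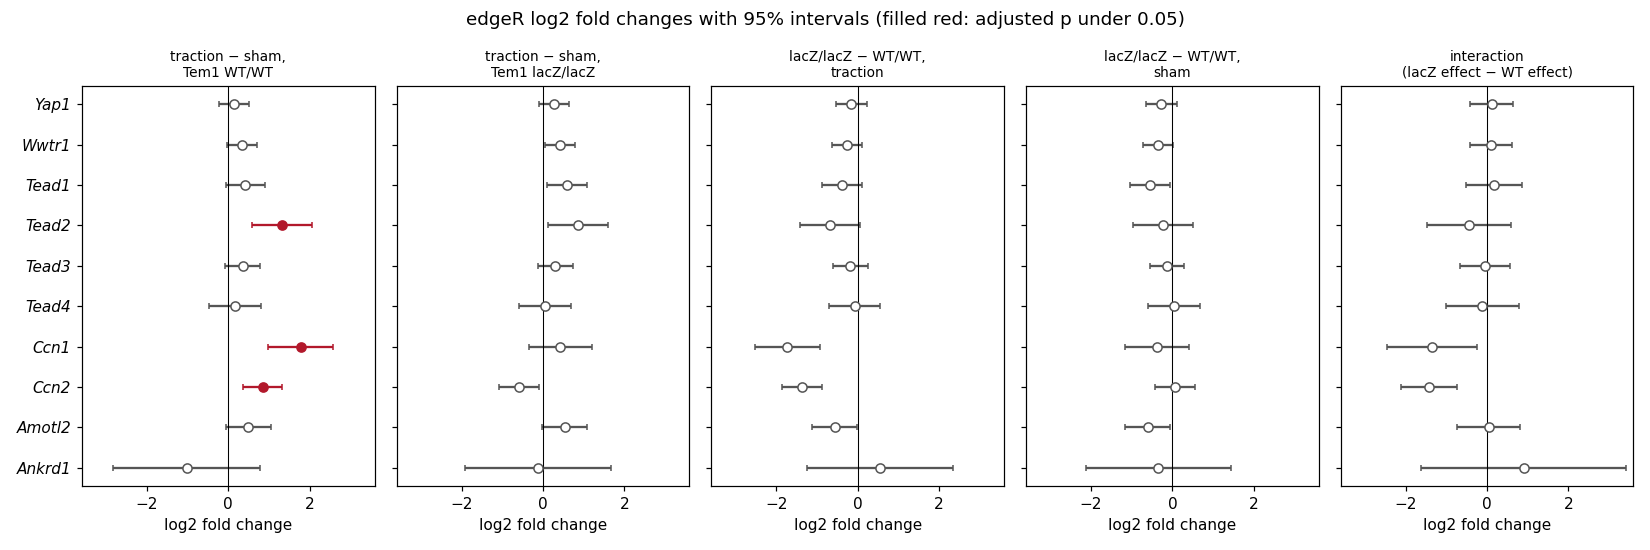
Log2 fold change (horizontal axis) of each of the 10 genes in 4 comparisons and in the interaction of genotype and traction (panels), with 95% intervals from edgeR. Filled red points passed an adjusted p under 0.05, and these are *Ccn1*, *Ccn2* and *Tead2* for traction in *Tem1* WT/WT mice, at 1.78, 0.84 and 1.31.

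In *Tem1* lacZ/lacZ mice no member passed the test for traction. *Ccn1* averaged 62.5 CPM with traction and 46.4 CPM in sham scars, *Ccn2* 50.7 and 76.0 CPM, and *Yap1* 108 and 89.4 CPM. edgeR called 0 of 10 members and 0% of all genes. DESeq2 called 0 members and 0.149% of all genes, and limma-voom 0 members and 2.00% of all genes. At an unadjusted p under 0.05, 3 members were higher with traction and 1 was lower, where 5.66% of all genes were higher and 2.46% lower at that threshold.

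*Ccn1* stood at 44.1, 39.9 and 55.3 CPM in sham and at 36.6, 89.8 and 61.1 CPM in traction scars of *Tem1* lacZ/lacZ mice. Traction replicate 1 lay below every sham library and the other two above them, and the log2 fold change was 0.43 (95% interval −0.35 to 1.21). *Ccn2* had 51.7, 79.4 and 97.0 CPM in sham scars and 54.0, 46.3 and 51.6 CPM with traction. The traction values were close together near the lowest sham value, with a log2 fold change of −0.59 (standard error 0.22, edgeR unadjusted p = 0.0227, adjusted p = 0.598). *Amotl2* stood at 70.7, 53.1 and 51.9 CPM in sham and at 51.6, 117 and 86.0 CPM in traction scars, again with traction replicate 1 lowest. This replicate was the library with the highest keratinocyte sum. Without it edgeR called 0 members and 0.376% of all genes in this comparison.

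The 3 members with the higher values were *Wwtr1*, *Tead1* and *Tead2*. *Wwtr1* stood at 92.3, 81.1 and 91.2 CPM in sham and at 96.1, 123 and 137 CPM in traction scars, without overlap (log2 fold change 0.43, standard error 0.17, edgeR unadjusted p = 0.0281). *Tead2* had 7.16, 7.02 and 7.41 CPM in sham and 9.24, 16.9 and 13.2 CPM with traction, also without overlap (log2 fold change 0.87, standard error 0.33, unadjusted p = 0.0248). These were 2 of 10 members, where 6.77% of all genes were separated upwards. *Tead1* stood at 47.5, 36.8 and 51.2 CPM in sham and at 49.8, 82.2 and 71.3 CPM with traction (log2 fold change 0.58, standard error 0.22, unadjusted p = 0.0231). The adjusted p of each of the 3 genes was 0.598. *Yap1* ranged from 77.3 to 98.3 CPM in sham and from 95.6 to 123 CPM in traction scars, *Tead3* from 24.7 to 35.2 and from 34.2 to 45.7 CPM, and *Tead4* from 8.64 to 10.5 and from 9.05 to 10.2 CPM, each with overlap. *Ankrd1* was at 15.5, 10.3 and 35.3 CPM in sham and 35.4, 12 and 8.71 CPM with traction, so that both groups covered nearly the same range.

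Set against each other, the traction scars of both genotypes differed most in the secreted targets, although no member passed the test in edgeR. *Ccn1* averaged 62.5 CPM in *Tem1* lacZ/lacZ and 208 CPM in *Tem1* WT/WT mice with traction, and *Ccn2* 50.7 against 131 CPM. All 3 *Tem1* lacZ/lacZ libraries lay below all 3 *Tem1* WT/WT libraries for these 2 of 10 members, and 13.7% of all genes were separated in this direction. The log2 fold change was −1.37 for *Ccn2* (standard error 0.22, edgeR unadjusted p = 7.58e-05, adjusted p = 0.0574). For *Ccn1* it was −1.73 (standard error 0.36, edgeR unadjusted p = 0.000583, adjusted p = 0.0834).

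In edgeR 0 of 10 members and 0.106% of all genes were called here, with 3 members at an unadjusted p under 0.05, all lower, against 15.1% of all genes. limma-voom called 0 members. DESeq2 called 2, *Ccn2* (adjusted p = 1.41e-05) and *Ccn1* (adjusted p = 0.000531), in a table where it called 12.4% of all genes. edgeR itself called *Ccn2* without *Tem1* WT/WT traction replicate 2 (adjusted p = 0.0203) or *Tem1* lacZ/lacZ sham replicate 1 (0.0276), and *Ccn1* without *Tem1* WT/WT traction replicate 2 (0.0434). Without that traction library the share of all genes called rose to 7.32%, and without that sham library it was 0.0620%. Without both libraries that stood apart, the log2 fold changes were −1.50 for *Ccn2* (adjusted p = 0.0675) and −1.86 for *Ccn1* (0.109). Over all alternatives the log2 fold change of *Ccn2* stayed between −1.50 and −1.20 and that of *Ccn1* between −2.08 and −1.43.

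*Amotl2* was the third member at an unadjusted p under 0.05, with a log2 fold change of −0.57 (standard error 0.25, edgeR adjusted p = 0.181). Its *Tem1* lacZ/lacZ values of 51.6, 117 and 86.0 CPM reached into the *Tem1* WT/WT range of 107 to 136 CPM. The coactivators overlapped between genotypes under traction, with log2 fold changes of −0.15 for *Yap1* (95% interval −0.52 to 0.22) and −0.26 for *Wwtr1* (95% interval −0.63 to 0.11). *Tead1* and *Tead2* had log2 fold changes of −0.38 (95% interval −0.87 to 0.10) and −0.68 (95% interval −1.41 to 0.05), also with overlap. The fold changes of *Tead3* (−0.18) and *Tead4* (−0.08) were within their standard errors of 0.19 and 0.29, and *Ankrd1* had a wide interval around 0.55, from −1.24 to 2.34.

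Under sham conditions no member passed the test either, and the libraries of the genotypes were separated in members other than the secreted targets. *Yap1*, *Wwtr1*, *Tead1* and *Amotl2* were lower in all 3 *Tem1* lacZ/lacZ libraries than in all 3 *Tem1* WT/WT libraries, and these are 4 of 10 members where 13.8% of all genes were separated downwards. None was called: edgeR called 0 members and 0.0106% of all genes, and DESeq2 and limma-voom called 0 members. At an unadjusted p under 0.05, 2 members were lower, against 6.62% of all genes. *Amotl2* averaged 58.6 ± 10.5 CPM in *Tem1* lacZ/lacZ and 89.5 ± 3.97 CPM in *Tem1* WT/WT sham scars (SD, n = 3; log2 fold change −0.61, standard error 0.25, edgeR unadjusted p = 0.0325). *Tead1* averaged 45.2 ± 7.49 against 66.1 ± 7.75 CPM (log2 fold change −0.55, standard error 0.22, unadjusted p = 0.0310). *Wwtr1* averaged 88.2 ± 6.19 against 113 ± 12.4 CPM (log2 fold change −0.36, standard error 0.17, unadjusted p = 0.0580), and *Yap1* 89.4 ± 10.9 against 108 ± 10.8 CPM (log2 fold change −0.27, standard error 0.17, unadjusted p = 0.139). The secreted targets overlapped, with log2 fold changes of −0.38 for *Ccn1* (95% interval −1.16 to 0.40) and 0.06 for *Ccn2* (95% interval −0.42 to 0.55). The log2 fold changes of *Yap1*, *Wwtr1*, *Tead1* and *Amotl2* had the same sign under traction, at −0.15, −0.26, −0.38 and −0.57, with overlap.

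The interaction term compares the traction response of both genotypes directly. A negative value means that traction raised the gene less, or lowered it more, in *Tem1* lacZ/lacZ mice. *Ccn2* and *Ccn1* had the largest negative interactions of the 10 members, at −1.43 (standard error 0.31, edgeR unadjusted p = 0.000804) and −1.35 (standard error 0.50, unadjusted p = 0.0210). The adjusted p was 0.548 for both. edgeR called 0 members and 0% of all genes, while 2 members were below an unadjusted p of 0.05, where 4.46% of all genes were so in this direction. limma-voom called 0 members and DESeq2 called 1, *Ccn2* (adjusted p = 0.0217), among 0.366% of all genes. *Ccn2* stood at rank 26 of the 18853 genes by p and *Ccn1* at rank 671. The interactions of *Yap1* and *Wwtr1* were 0.12 (95% interval −0.41 to 0.64) and 0.10 (95% interval −0.43 to 0.62).

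Marker sums of whole cell types differed between the same groups, and in bulk RNA fewer cells of a type and less RNA per cell cannot be told apart. The 9 fibroblast markers summed to 46727 to 121635 CPM in *Tem1* WT/WT traction scars, 28107 to 47836 CPM in *Tem1* WT/WT sham, 29613 to 58039 CPM in *Tem1* lacZ/lacZ traction and 23380 to 40060 CPM in *Tem1* lacZ/lacZ sham scars. Matrix genes made up most of this sum. *Col3a1* reached 56601 CPM, *Col1a2* 25145, *Col1a1* 23366 and *Postn* 10742 CPM, and no other marker exceeded 3661 CPM. For traction in *Tem1* WT/WT mice 7 of the 9 genes had positive and 2 negative log2 fold changes (median 0.55), and 1 was called higher. In this comparison, to which the endothelial and neutrophil calls below also belong, 5.61% of all genes were called higher. The 7 endothelial markers summed to 835 to 993 CPM in *Tem1* WT/WT traction scars, above all other libraries, which ranged from 259 to 661 CPM, and 4 of the 7 were called higher there. The libraries with the 3 highest levels of *Ccn1* and of *Ccn2* were thus also those with the 3 highest endothelial sums. The neutrophil and skeletal muscle markers differed as well. The neutrophil markers summed to 287 to 6796 CPM in *Tem1* WT/WT traction and 62.0 to 97.6 CPM in *Tem1* WT/WT sham scars, and 4 of the 6 that passed the filter were called higher, with a median log2 fold change of 4.78. Of the 12 skeletal muscle markers 11 were lower with traction in these mice at an unadjusted p under 0.05, against 14.7% of all genes. The median log2 fold change of the 12 was −2.76, and none passed the adjusted threshold in edgeR. The part of these cell types in the levels of the members was not tested.

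**Figure D3:**
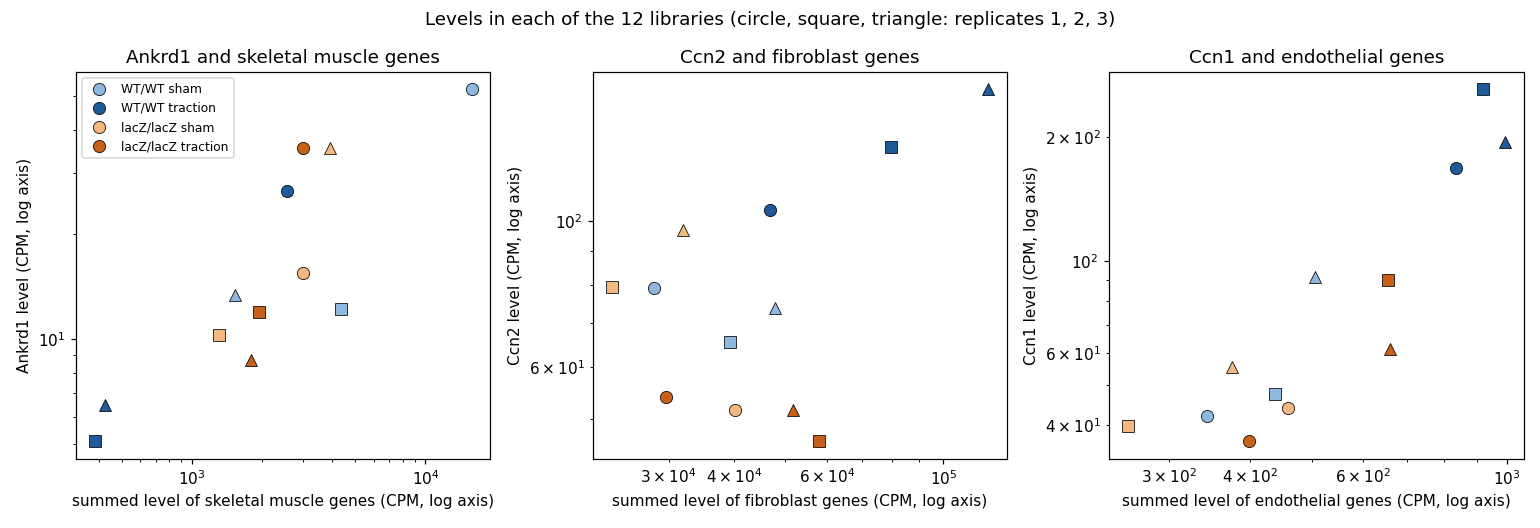
Level of a target gene (vertical axis, CPM, log scale) against the summed level of marker genes (horizontal axis, CPM, log scale) in the 12 libraries, for *Ankrd1* and skeletal muscle, *Ccn2* and fibroblast, and *Ccn1* and endothelial genes. The library with a muscle sum of 15784 CPM has the highest *Ankrd1* (52.1 CPM), and the 3 *Tem1* WT/WT traction libraries lie at the upper right for *Ccn1*.

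The TEAD family was also read as a whole. As a share of the summed CPM per kb of all 4 genes, *Tead3* held 30% to 44.4% and *Tead1* 22.9% to 37.3% over the 12 libraries. *Tead4* held 8.11% to 24.4% and *Tead2* 6.78% to 24.8%. In *Tem1* WT/WT mice the share of *Tead2* was 12.5% ± 4.93 in sham and 21.5% ± 3.51 in traction scars (SD, n = 3), with ranges of 6.78% to 15.7% and 17.8% to 24.8%. In *Tem1* lacZ/lacZ mice it was 12.5% ± 0.500 and 16.8% ± 2.1 (SD, n = 3). In both genotypes every traction library held a larger share of *Tead2* than every sham library. The last bases of *Tead2* overlap *Cd37*, and the first bases of *Tead1* overlap *2310014F06Rik*, each on the opposite strand. The strand setting of the counting is not given in the sources used here, so reads in these overlaps cannot be assigned with certainty.

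**Figure D4:**
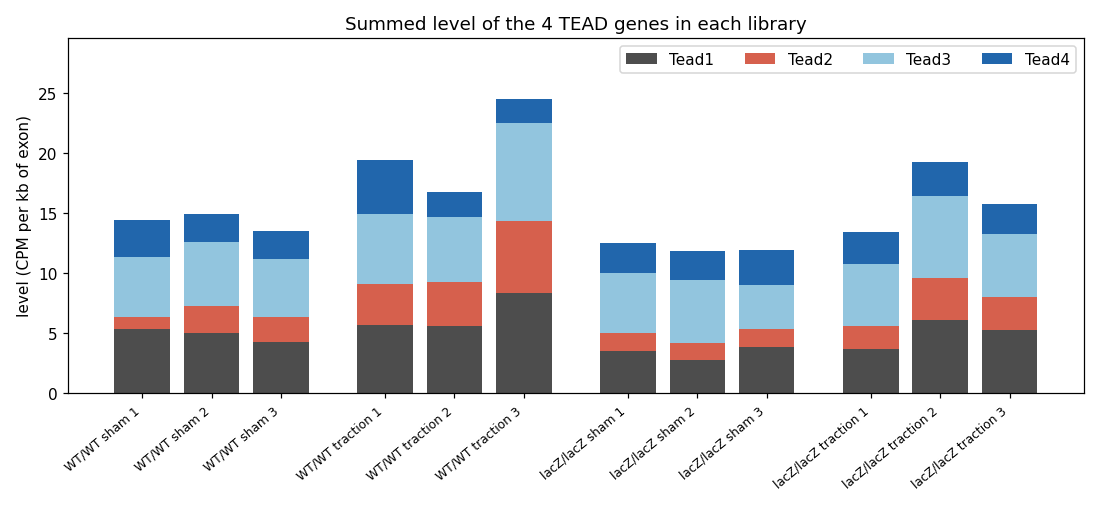
Summed level of the 4 TEAD genes (vertical axis, CPM per kb of exon) in each library (horizontal axis), stacked by gene. *Tead3* and *Tead1* form the larger part in most libraries, and the *Tead2* part reaches 24.8% of the sum in *Tem1* WT/WT traction replicate 3.

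The genes whose levels most resembled those of a member over the 12 libraries were read from log2 CPM, as a description without a test, since all 12 libraries share group differences and cell make-up. For *Ankrd1* these were *Ankrd23* (Pearson r = 0.951), *Cacng1* (0.942) and *Klhl40* (0.939), all of which are known as genes of striated muscle. For *Ccn1* they were *S1pr1* (0.965), a sphingosine 1-phosphate receptor high in endothelium, *Chsy1* (0.957) and *Abcc3* (0.957). For *Ccn2* they were *Nanos1* (0.943), *Sulf1* (0.888) and *Errfi1* (0.873). *Amotl2* was most like *Med26* (0.974), *Ap1b1* (0.973) and *Rab14* (0.972), *Yap1* most like *Tnpo2* (0.975), *Atxn7l2* (0.967) and *Dgcr2* (0.949), and *Wwtr1* most like *Gxylt2* (0.979), *Sema5a* (0.978) and *Zfp518b* (0.973).

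Beyond the 10 members, 46 further genes of the pathway were read in 4 lists, of which 44 passed the filter. Traction in *Tem1* WT/WT mice raised 4 of the 44 (9.09%, against 5.61% of all genes called higher) and lowered 0, against 3.54% called lower. Counted in both directions, their share of 9.09% stood beside 9.15% of all genes. The 4 genes were *Sav1* and *Map4k4* of the kinase cascade and the targets *Dock5* and *Nuak2*. At an unadjusted p under 0.05, 17 were higher and 1 lower, where 16.7% of all genes were higher and 14.7% lower. The median log2 fold change was 0.11 for 15 genes of the Hippo kinase cascade, 0.11 for 11 junction and cytoskeletal genes, −0.14 for 3 other TEAD cofactors and 0.66 for 15 other targets, beside −0.01 for all genes.

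*Map4k4* encodes a kinase that acts on LATS in parallel to MST. It stood at 256, 299 and 307 CPM in sham and at 551, 421 and 435 CPM in traction scars of *Tem1* WT/WT mice (log2 fold change 0.71, standard error 0.15, edgeR adjusted p = 0.0324). *Sav1*, the scaffold of the MST kinases, went from 42.6, 42.0 and 44.5 CPM to 91.8, 65.9 and 67.4 CPM (log2 fold change 0.80, standard error 0.22, adjusted p = 0.0480). Both genes had separate groups, and replicate 1, the library with the highest neutrophil sum, was the highest traction library for each.

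*Nuak2*, a kinase of the AMPK family, had 12.7, 13.4 and 16.6 CPM in sham and 38.3, 25.1 and 22.6 CPM in traction scars (log2 fold change 1.01, standard error 0.21, edgeR adjusted p = 0.0300). *Dock5*, an exchange factor for Rac, had 19.8, 29.4 and 27.1 CPM in sham and 38.6, 47.7 and 50.7 CPM in traction scars (log2 fold change 0.84, standard error 0.19, adjusted p = 0.0329). Neither pair of groups overlapped. Without both libraries that stood apart, edgeR called 0 of these 44 genes, with 16 at an unadjusted p under 0.05, as were 3822 of all 19192 genes. The log2 fold changes were then 0.79 for *Dock5*, 0.66 for *Nuak2*, 0.62 for *Sav1* and 0.49 for *Map4k4*, with adjusted p from 0.120 to 0.235. The 4 calls were also lost without *Tem1* WT/WT sham replicate 1 (adjusted p from 0.122 to 0.148), without *Tem1* WT/WT sham replicate 2 (0.0894 to 0.116) and without *Tem1* lacZ/lacZ sham replicate 3 (0.0515 to 0.0758). *Map4k4* was lost as well without *Tem1* WT/WT sham replicate 3 (0.0506) or traction replicate 1 (0.0686), *Dock5* without *Tem1* WT/WT sham replicate 3 (0.0559) or traction replicate 3 (0.0718), and *Nuak2* without *Tem1* WT/WT traction replicate 1 (0.0532). *Sav1* was kept only without *Tem1* WT/WT traction replicate 2 (0.0367) or *Tem1* lacZ/lacZ traction replicate 1 (0.0260).

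*Dchs1* and *Fat4*, the paired protocadherins upstream of the cascade, had large fold changes with wide errors. *Dchs1* stood at 8.81, 18.4 and 18.1 CPM in *Tem1* WT/WT sham and at 32.5, 36.5 and 79.9 CPM in traction scars (log2 fold change 1.71, standard error 0.55, edgeR adjusted p = 0.0683). *Fat4* had 24.0, 36.9 and 49.8 CPM in sham and 42.0, 70.5 and 137 CPM with traction, with overlap (log2 fold change 1.18, standard error 0.45, adjusted p = 0.103). For both, traction replicate 3 was the highest library. The cofactor genes *Vgll3* and *Vgll2*, whose products bind TEAD proteins, had log2 fold changes of 0.44 (standard error 0.29) and −1.05 (standard error 0.86). *Vgll2* was at 6.08 CPM in *Tem1* WT/WT sham replicate 1, the library with the highest muscle sum, and between 0.452 and 2.88 CPM in the others.

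**Figure D5:**
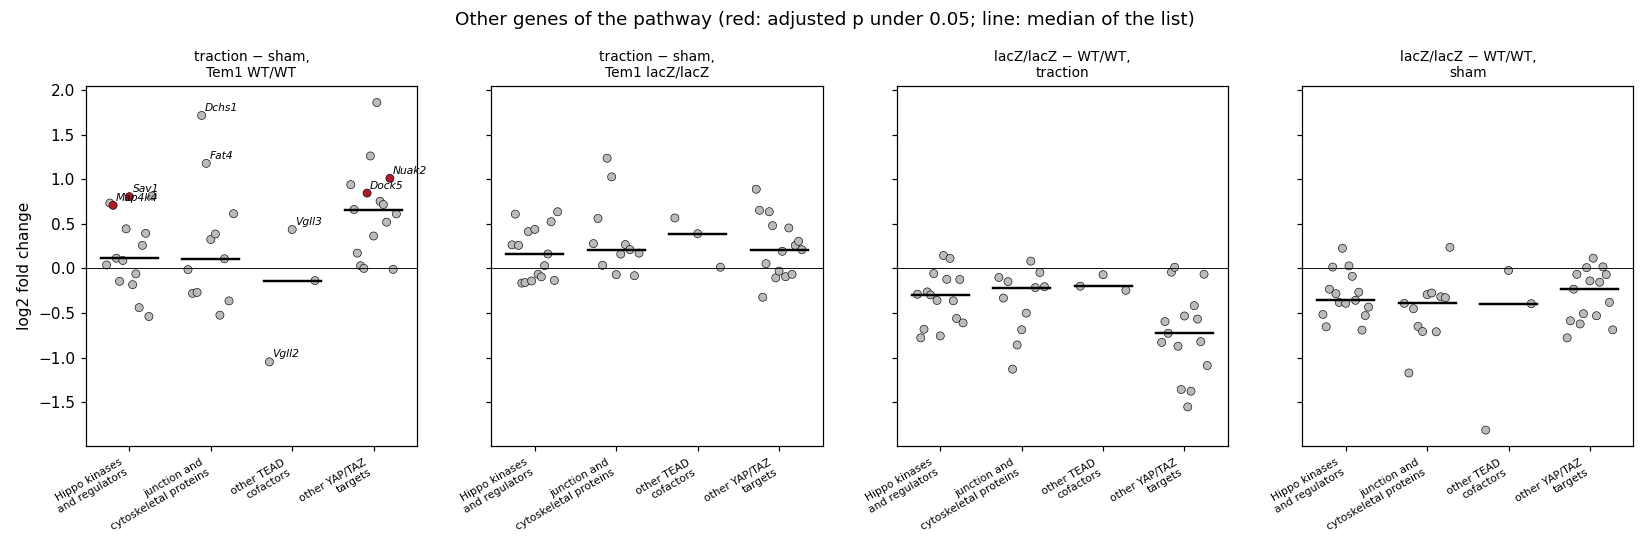
Log2 fold change (vertical axis) of the 44 further pathway genes in 4 lists (horizontal axis) for 4 comparisons (panels), 1 point per gene, with the median of each list as a line. The 4 red points, for traction in *Tem1* WT/WT mice, are *Map4k4*, *Sav1*, *Dock5* and *Nuak2*, and the median of the other targets is 0.66 in that panel and −0.73 between genotypes under traction.

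In *Tem1* lacZ/lacZ mice, traction called 0 of the 44 genes in edgeR, with 9 higher and 0 lower at an unadjusted p under 0.05, against 5.66% and 2.46% of all genes. DESeq2 called 0 and limma-voom 3, the kinase cascade genes *Lats2*, *Nf2* and *Wwc2*, named here after their values were seen, where it called 2.00% of all genes. edgeR called *Lats2* when *Tem1* lacZ/lacZ traction replicate 1 was left out (adjusted p = 0.0495), with 0.376% of all genes called. Between genotypes under traction edgeR and limma-voom called 0, with 17 lower and 0 higher at an unadjusted p under 0.05, against 15.1% and 11.1% of all genes. DESeq2 called 10, and 12.4% of all genes. The log2 fold changes of *Dock5*, *Nuak2*, *Sav1* and *Map4k4* were −0.87, −0.82, −0.76 and −0.68, with adjusted p from 0.0845 to 0.0971 in edgeR. Without *Tem1* WT/WT traction replicate 2 edgeR called 6 genes of the lists here, *Map4k4*, *Frmd6*, *Igfbp3*, *Foxf2*, *Dock5* and *Nuak2*, all lower, in a fit that called 7.32% of all genes. In sham scars 0 were called by edgeR, DESeq2 or limma-voom, and 13 were lower and 0 higher at an unadjusted p under 0.05, against 6.62% and 5.03% of all genes. For the interaction all 3 tools called 0 of the 44 genes, with 2 at an unadjusted p under 0.05, where 8.91% of all genes were. These were *Rassf1*, named after its value was seen, and *Nuak2*, both negative. Of the 2 genes that did not pass the filter, *Vgll1* had 0 counts in every library, which allows up to 3 counts in each, and *Foxf2* had 4 to 32 counts.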

How the data were processed

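RNA was extracted with the RNeasy mini kit, libraries were made with the TruSeq Stranded mRNA kit and 150-bp paired-end reads were sequenced. Per the labels, the authors trimmed reads with fastp (0.20.0), aligned them to GRCm38 with HISAT2 (2.1.0) and deposited raw counts per gene from featureCounts (2.0.0). Which annotation and strand setting were used, and how reads with several positions were treated, is not given in the sources used here.

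The counts were used as deposited. Genes were filtered by filterByExpr over the 4 groups, and counts were scaled by TMM and fitted with edgeR (4.0.16) in R (4.3.3), in a robust quasi-likelihood model of 12 libraries with 8 residual degrees of freedom. Each of 5 contrasts was tested two-sided with Benjamini-Hochberg adjustment over all 18853 genes tested, and a call is an adjusted p under 0.05. The common coefficient of biological variation was 34.2%. CPM per kb used GENCODE M21 exon lengths, with overlapping exons of a gene merged, and log2 CPM for the likeness of genes used a prior count of 2. Promoter windows came from RefSeq (GRCm38.p6). Figures were drawn with matplotlib (3.10.9). No 2 libraries of a group agreed within sampling noise. Each library total sets the counting precision, and the members had at least 215 counts in every library.

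On simulated data with 200 genes changed by a log2 fold change of 2 among 18433, the WT traction contrast recovered 185 with 5 false calls. The interaction recovered 124 of 200, with 8 false calls among 18486 genes. The simulated counts followed the trend of the dispersion, without a spread particular to each gene and without libraries that stand apart. All members had smaller fold changes than those simulated, so these rates do not carry over to the members. Alternatives were DESeq2 (1.42.0), limma-voom (3.58.1) with sample weights, other scalings and filters, a replicate block, only the 6 libraries compared, and each library left out. The members and lists were chosen with earlier results of these data known. All members are named. Of the pathway lists, every gene called in a contrast and the 2 with the smallest p for WT traction in each list are named, and for likeness the 3 genes with the highest r.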

Additional observations from a re-analysis of the deposited data

How the results depend on the processing

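The rise of *Ccn1* with traction in *Tem1* WT/WT mice stayed past the threshold in 16 of 21 alternatives, and those of *Ccn2* and *Tead2* in 8 of 21 each, with the same direction in all 21. The number of members called there was 3. It became 1 in limma-voom (3.90% of all genes called) and 0 with only the 6 libraries compared (0%). It was also 0 without both libraries that stood apart (0.0104%), an alternative chosen after seeing the data. With 1 library left out it lay between 0 and 3 (0% to 14.7% of all genes). Of the further pathway genes, 4 were called, against 12 in DESeq2 (which called 21.5% of all genes, edgeR 9.15%), 0 with only the 6 libraries, 0 without both libraries that stood apart and 0 to 9 with 1 library left out. For traction in *Tem1* lacZ/lacZ mice, 0 pathway genes became 3 in limma-voom (2.00% of all genes called). With 1 library left out they became 0 to 1 (0% to 0.376% of all genes). Between genotypes under traction, 0 members became 1 with DESeq2 size factors (0.138% of all genes called) and 1 with all genes of at least 1 count (0.0595%). They became 2 in DESeq2 (12.4%) and 0 to 2 with 1 library left out (0.0155% to 7.32%). In the last 2 settings 0 pathway genes became 10 in DESeq2 and 0 to 6 with 1 library left out. For the interaction, 0 members became 1 in DESeq2 (0.366% of all genes called), and the 6-library setting gives no value. Settings that leave out libraries also have fewer degrees of freedom, and otherwise the cause was not tested.

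Upper quartile scaling moved the median log2 fold change of all genes to −0.12 (traction, *Tem1* WT/WT) and to 0.14 between genotypes under traction. The direction of values that had not passed the test turned in these cases. *Tead4* turned in limma-voom to −0.053 (traction, *Tem1* WT/WT), −0.045 (traction, *Tem1* lacZ/lacZ), 0.19 (genotypes, traction) and 0.0084 (interaction), to 0.069 with upper quartile scaling (genotypes, traction), and without both libraries that stood apart to −0.17, 0.42 and 0.22 (traction in *Tem1* WT/WT, genotypes under traction, interaction). *Ankrd1* between sham genotypes turned to 0.47 in limma-voom, 0.087 with the replicate block and 0.66 without both libraries. The interaction of *Tead3* turned to 0.023 with upper quartile scaling, 0.00062 with all genes of at least 1 count and 0.18 in limma-voom, and that of *Amotl2* to −0.032 without both libraries. Between genotypes under traction, *Vgll3* turned to 0.048 with upper quartile scaling and *Vgll2* to 0.30 in limma-voom, 0.18 with the replicate block and 1.19 without both libraries.

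With 1 library left out, values that turned ranged as follows. For traction in *Tem1* WT/WT mice *Yap1* ranged from −0.012 to 0.26, *Tead4* from −0.34 to 0.37 and *Vgll2* from −2.44 to 0.41, and in *Tem1* lacZ/lacZ mice *Ankrd1* from −0.93 to 0.55. Between genotypes under traction *Yap1* ranged from −0.25 to 0.023, *Tead3* from −0.32 to 0.033, *Tead4* from −0.27 to 0.44, *Ankrd1* from −0.27 to 1.71, *Vgll3* from −0.31 to 0.20 and *Vgll2* from −0.61 to 1.20. Between sham genotypes *Tead4* ranged from −0.057 to 0.20, *Ankrd1* from −1.02 to 0.66, *Ccn1* from −0.58 to 0.058 and *Ccn2* from −0.17 to 0.25. For the interaction *Wwtr1* ranged from −0.029 to 0.28, *Tead1* from −0.0015 to 0.41, *Tead3* from −0.20 to 0.18, *Tead4* from −0.32 to 0.42, *Ankrd1* from −0.11 to 2.07 and *Amotl2* from −0.26 to 0.36.

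Libraries were correlated on log2 CPM after the group mean of each gene had been taken off. So read, those with the same replicate number correlated from −0.32 to 0.25, above 0.1 in 8 of 18 pairs. Those with different numbers correlated from −0.40 to 0.37, most of them below 0.1. Only 2 libraries correlated best with their own number in every other group. These values do not settle whether the numbers pair the samples, and the main model holds no replicate block. With the replicate block 3 members and 4 pathway genes were called for traction in *Tem1* WT/WT mice, as without it, and 7.78% of all genes. *Sav1* was not among the 4 (adjusted p = 0.0643 in edgeR).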
